A study of Rattus norvegicus with 4 samples.

Results

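The collagens form the family of triple-helical proteins that gives the vessel wall its tensile strength. Its members here were all array probes whose RefSeq accession maps to a rat gene symbol made of Col, a number, a and a number, with every probe kept and not only the brightest of a gene. This gave 23 of the 16580 genes named on the array, with 31 of 45594 probes. The reference table holds 44 collagen symbols, and the other 21, among them Col4a2, Col5a2, Col6a1 and Col6a3, matched no probe and were not analysed here.

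RNA came from vessels of male rats, either transgenic rats that carry a deletion of PKCbeta, a serine and threonine kinase (KO), or Wistar rats as wild type (WT). The design names 4 rats of each genotype. The vessels had been exposed to angiotensin II (Ang II), a peptide hormone that constricts vessels, for 24 h, or served as controls. The 4 groups were KO with Ang II, KO control, WT with Ang II and WT control, with 1 array each. Which vessel was taken, how old the rats were, how the deletion was made and whether animals were pooled on an array are not stated in the labels. With 1 array per group no comparison has a replicate check. A difference between arrays is given with the scanner software's own error of the signal, which does not cover the animals. For bright probes this error was about 0.144 log2 units on each array, with 1 spot or with 10. It is therefore no measured spread of spots, and a difference larger than it has passed no test.

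Collagen chains are made in the endoplasmic reticulum, where prolines and lysines are hydroxylated and 3 chains wind into a helix. Fibrillar collagens are then trimmed outside the cell, assembled into fibrils and cross-linked, while type IV collagen forms the sheet of the basement membrane and other types sit on fibrils, around cells or in membranes. In the vessel wall, types I and III make up most of the fibrils of the media and adventitia, and fibroblasts and smooth muscle cells are their main source.

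Levels are processed signals on a log2 scale minus the 75th percentile of the same array, called scaled log2 levels below. That percentile lay between 47.3 and 62.4 signal units, and 40.6% to 43.5% of the probes of an array were well above background by the scanner software's flag. No spot was saturated. The A_64_P047281 probe of Prkcb, the deleted gene, had signals of 1.89 in KO with Ang II, 1.94 in KO control, 18.0 in WT with Ang II and 14.8 in WT control, and was not well above background on either KO array. The other probe, A_44_P1089921, had 1.73, 1.90, 12.2 and 8.27 on the same arrays and was above background in WT with Ang II alone. Whether these probes lie in the deleted part is not known here. All 10 fixed smooth muscle markers and 7 of 9 endothelial markers on the array were well above background on all 4 arrays. None of 5 Schwann cell or 5 white adipocyte markers was, but some were on single arrays. In KO with Ang II, KO control, WT with Ang II and WT control these were 0, 1, 2 and 3 Schwann cell markers. For white adipocyte markers the counts were 1, 0, 2 and 2. In such bulk RNA, fewer cells of a type and less RNA per cell cannot be told apart.

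Of the 31 collagen probes, 14 were well above background on all 4 arrays, for 11 genes. These were Col1a1 and Col5a1 with 2 probes each, Col1a2, Col3a1 and Col5a3 among the fibrillar collagens, Col4a1 of the basement membrane, Col16a1 of the FACIT group (collagens that attach to fibrils and have interrupted helices), Col6a2 with 2 probes of the beaded filaments, Col8a1 of the short chain networks, and Col15a1 and Col18a1 of the multiplexins. Another 3 probes were above background on 1 array only, for Col2a1, Col6a5 and Col11a2. The remaining 14 probes were above background on no array, with signals of 1.62 to 4.23, and so have no measured level. They belong to Col4a4, Col7a1, Col9a1, Col9a2, Col11a1, Col13a1, Col14a1, Col23a1 and Col26a1, and include a second Col11a2 probe. Cartilage collagens (types II, IX and XI), the membrane collagens XIII and XXIII and the anchoring fibril collagen VII were thus nearly all without a measured level in these vessels.

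**Figure D1:**
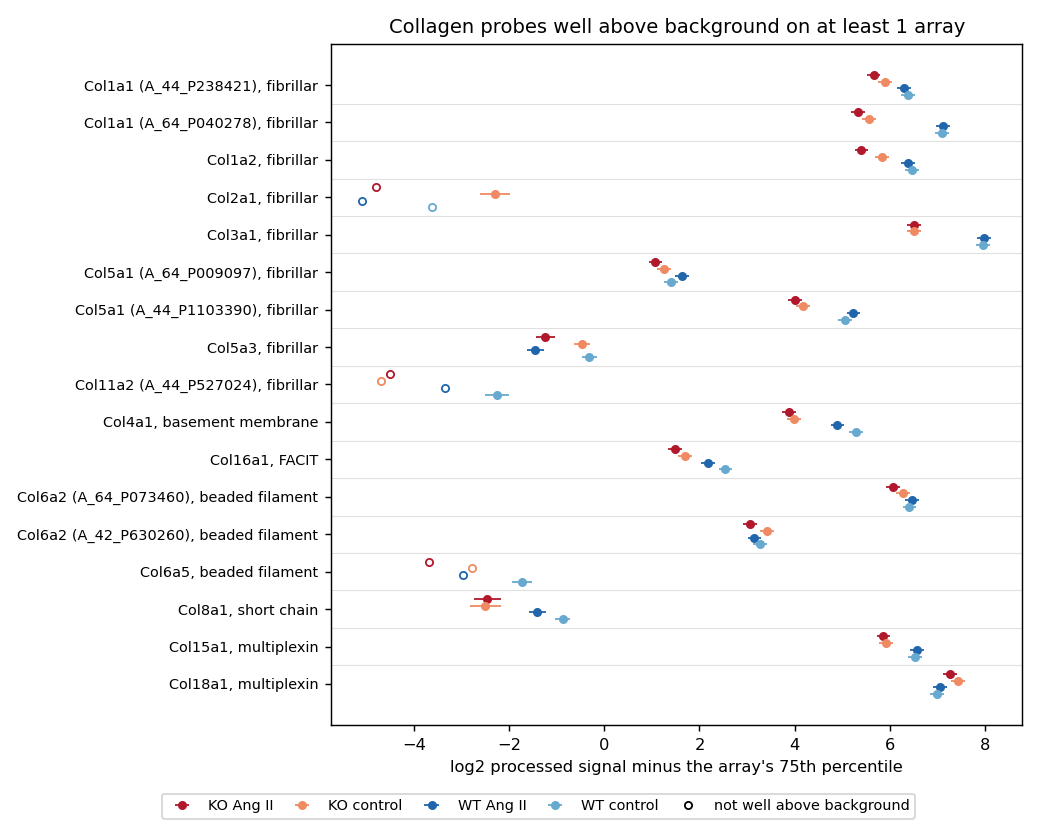
Scaled log2 level (log2 processed signal minus the 75th percentile of the array) of each collagen probe that was well above background on at least 1 array, with 1 point per array for the 4 groups. Col3a1 and the A_64_P040278 probe of Col1a1 lie lower on both KO arrays than on both WT arrays, while the 4 points of Col18a1 lie between 6.98 and 7.43.

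Promoter windows are shown for the genes on which the genotype comparison turns, as far as the reference holds them: Col4a1 and Col8a1, whose probes were lower in KO both with and without Ang II, Col1a2, the type I collagen chain with a listed window, and Col18a1, which was higher in KO in both. Each is 300 bases from RefSeq on GRCr8, 250 before the gene's start and 50 after it, on the plus strand. They lie at chr16:84885347-84885646 for Col4a1, chr11:56246532-56246831 for Col8a1, chr4:33518307-33518606 for Col1a2 and chr20:11473395-11473694 for Col18a1. Capitals mark matches, on either strand, to CCAAT (the CCAAT box), TATAAA (the TATA box), GGGCGG (the GC box), CAGAC (a SMAD box) and TGANTCA (the AP-1 site).
Col4a1: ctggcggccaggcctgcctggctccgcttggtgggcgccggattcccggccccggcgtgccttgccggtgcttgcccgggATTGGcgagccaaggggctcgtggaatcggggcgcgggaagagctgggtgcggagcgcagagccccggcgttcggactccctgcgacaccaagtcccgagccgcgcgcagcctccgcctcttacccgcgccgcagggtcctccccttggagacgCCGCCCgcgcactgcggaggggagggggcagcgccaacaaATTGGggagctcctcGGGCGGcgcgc
Col8a1: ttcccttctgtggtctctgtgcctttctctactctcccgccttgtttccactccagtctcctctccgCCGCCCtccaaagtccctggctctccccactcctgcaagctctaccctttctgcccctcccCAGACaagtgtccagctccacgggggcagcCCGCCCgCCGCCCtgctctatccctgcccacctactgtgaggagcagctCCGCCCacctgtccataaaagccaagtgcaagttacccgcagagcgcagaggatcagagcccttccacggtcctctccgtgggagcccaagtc
Col1a2: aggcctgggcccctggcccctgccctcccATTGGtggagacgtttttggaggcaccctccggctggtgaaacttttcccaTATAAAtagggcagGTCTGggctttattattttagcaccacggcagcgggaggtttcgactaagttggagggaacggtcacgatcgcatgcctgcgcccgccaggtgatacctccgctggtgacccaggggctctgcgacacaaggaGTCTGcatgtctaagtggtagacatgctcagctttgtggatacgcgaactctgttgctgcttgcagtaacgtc
Col18a1: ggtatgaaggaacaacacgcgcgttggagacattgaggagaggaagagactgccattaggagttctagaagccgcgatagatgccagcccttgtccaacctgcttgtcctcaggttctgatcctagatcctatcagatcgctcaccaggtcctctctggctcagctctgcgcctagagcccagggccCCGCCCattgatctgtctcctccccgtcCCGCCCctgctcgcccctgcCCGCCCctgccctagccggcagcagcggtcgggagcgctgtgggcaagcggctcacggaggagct
Of the 11 collagen genes measured on all arrays, 8 had a window. Among these, GGGCGG occurred in 6 and CCAAT in 3, against 33.1% and 37.5% of all 33469 promoter windows. CAGAC occurred in 3 of the 8 against 50.1% of all windows, TATAAA in 1 (Col1a2) against 14.2%, and TGANTCA in 0 against 7.33%. No matches overlapped in the collagen windows. Col8a1 and Col18a1 carried several GC boxes, and Col4a1 carried both CCAAT and GC boxes. A match is a string of letters in this window and no evidence of binding.

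The comparison of KO with WT asks how collagen transcripts differ in vessels that lack PKCbeta. Most measured collagens were lower on the KO arrays, with differences past 2-fold in both comparisons for probes of types I, III, IV and VIII, while type XVIII was slightly higher. With Ang II, 5 of 14 collagen probes were at least 2-fold lower in KO and 0 were at least 2-fold higher. Over all probes compared in the same way, 3.63% were at least 2-fold lower and 3.01% at least 2-fold higher. Without Ang II, 4 of 17 were lower and 0 higher, against 2.81% lower and 3.32% higher of all probes. The comparisons use separate arrays but are not known to use separate animals, so they are not taken as independent repeats. Of the 14 probes measured on all arrays, 4, for Col1a1, Col3a1, Col4a1 and Col8a1, were at least 2-fold lower in both, against 0.857% of 17390 probes. Among bright probes, with a mean scaled log2 level above 3, where 10 of the 14 collagen probes lay, 3 of the 10 (Col1a1, Col3a1 and Col4a1) were that low in both, against 0.478% of bright probes. The count of 4 was 3 with scaling on probes above background on all arrays, which put Col4a1 just inside 2-fold. It was also 3 with normexp background correction, whose offset of 50 shrinks differences of dim probes and which put Col8a1 within 2-fold. Of the 14, 11 were below 0 in both comparisons and 1 above 0 in both, where 31.9% and 39.8% of all probes were.

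**Figure D2:**
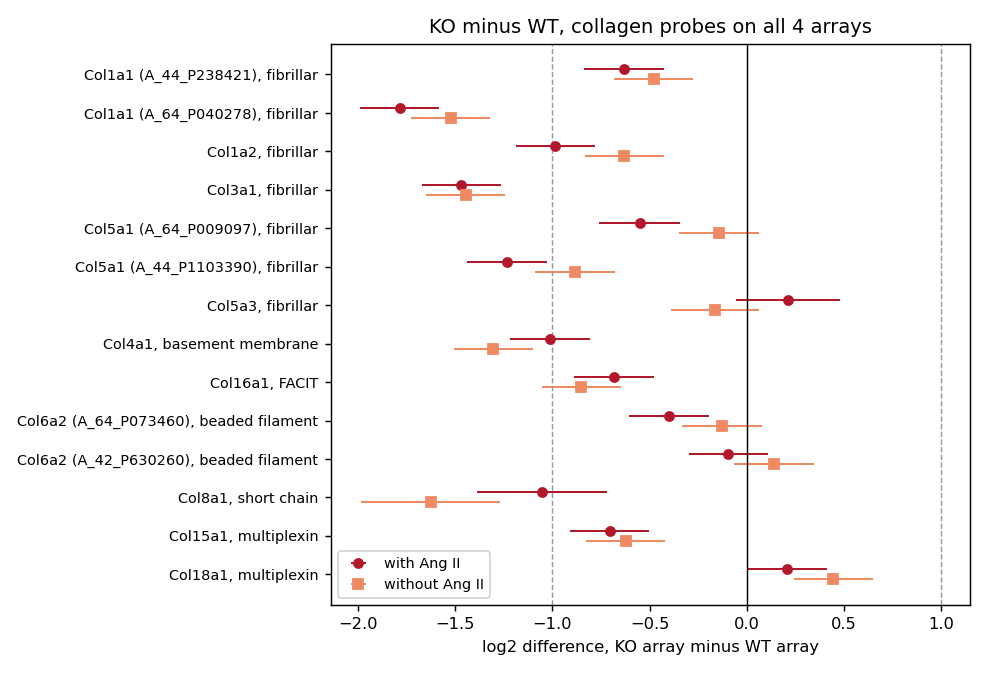
KO minus WT log2 difference, with Ang II and without, of the 14 collagen probes above background on all 4 arrays, with error bars from the scanner software's signal error and lines at 2-fold. Col1a1 (A_64_P040278), Col3a1, Col4a1 and Col8a1 lie past 2-fold lower in both, and Col18a1 lies above 0 in both.

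Type I collagen is a heterotrimer of the Col1a1 and Col1a2 chains and the main fibril of the vessel wall. The A_64_P040278 probe of Col1a1 had scaled log2 levels of 5.33 in KO with Ang II and 5.56 in KO control, against 7.11 in WT with Ang II and 7.09 in WT control. Both KO arrays were below both WT arrays, with log2 differences of -1.78 ± 0.20 with Ang II (3.44-fold lower) and -1.52 ± 0.20 without (2.87-fold lower). Of the 17390 probes above background on all arrays, this one included, 0.109% had a difference of -1.52 or lower in both comparisons. The A_44_P238421 probe of the same gene had 5.66 and 5.90 in KO with Ang II and KO control, against 6.29 and 6.38 in WT with Ang II and WT control. It was lower in KO too, but with log2 differences of only -0.63 and -0.48. The probes thus agreed in direction and disagreed in size, by 1.1 log2 units in the mean difference. Among 1338 genes with 2 probes measured on all arrays, the median gap was 0.28, and 4.56% of genes had a gap as large. Col1a2 had 5.40 in KO with Ang II and 5.84 in KO control, against 6.38 in WT with Ang II and 6.47 in WT control. Its log2 differences were -0.98 with Ang II and -0.63 without, within 2-fold in both, though the first lay at the line and was -1.17 with normexp correction.

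Type III collagen forms thinner fibrils together with type I and is abundant in distensible tissues such as arteries. Col3a1 had scaled log2 levels of 6.51 in KO with Ang II and 6.51 in KO control, against 7.98 in WT with Ang II and 7.96 in WT control. The levels within a genotype were nearly equal, and the log2 differences between genotypes were -1.47 with Ang II (2.76-fold lower) and -1.45 without (2.72-fold lower). The probe kept 8 to 10 spots per array, whose SD was 0.0465, 0.0639, 0.069 and 0.0449 log2 units on the KO Ang II, KO control, WT Ang II and WT control arrays. This spread is technical and says nothing of the animals. Of the 17390 probes above background on all arrays, this one included, 0.155% had a difference of -1.45 or lower in both comparisons.

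Type V collagen is a minor component that nucleates type I fibrils and sets their diameter. The A_44_P1103390 probe of Col5a1 had 4.0 in KO with Ang II and 4.17 in KO control, against 5.23 in WT with Ang II and 5.06 in WT control. It was 2.35-fold lower in KO with Ang II (log2 difference -1.23) and within 2-fold without (-0.88). The A_64_P009097 probe had 1.08 and 1.26 in KO with Ang II and KO control, against 1.63 and 1.41 in WT with Ang II and WT control, giving -0.55 and -0.14. Its difference without Ang II was smaller than the signal error of about 0.20. Col5a3, another type V chain, differed by 0.21 ± 0.27 with Ang II and by -0.16 ± 0.23 without, both within the error. The 7 fibrillar probes measured on all arrays had a median log2 difference of -0.98 with Ang II and -0.63 without, where the medians over all probes were 0.03 and 0.05. With Ang II 6 of the 7 were below 0 (47.1% of all probes were), and without Ang II all 7 were (45.1% of all probes were).

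Col4a1 encodes the chain that, with Col4a2, makes the basement membrane network under endothelium and around smooth muscle cells. It had scaled log2 levels of 3.89 in KO with Ang II and 3.99 in KO control, against 4.90 in WT with Ang II and 5.29 in WT control. Both KO values were below both WT values, with log2 differences of -1.01 ± 0.20 with Ang II (2.02-fold lower) and -1.30 ± 0.20 without (2.47-fold lower). The value with Ang II sat at the 2-fold line, and scaling on the 75th percentile or the median of the probes above background on all arrays put it just inside, at -0.98 and -0.99. Col4a4, the other basement membrane chain with a probe, was above background on no array.

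Col8a1 makes a short chain collagen that forms hexagonal lattices and is produced by endothelial and smooth muscle cells. It was dim, with -2.46 in KO with Ang II and -2.50 in KO control, against -1.40 in WT with Ang II and -0.87 in WT control. It was 2.07-fold lower in KO with Ang II and 3.08-fold lower without, with errors of 0.33 and 0.36 log2 units. The KO signals of 9.50 and 8.38 lay close to the lowest signals called above background on those arrays, 8.21 and 8.31. With normexp background correction the log2 differences shrank to -0.14 and -0.28, so the size of the Col8a1 difference depends on the background correction.

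Neither Col16a1 nor the multiplexins were past 2-fold in KO. Col16a1, a FACIT collagen, had 1.49 in KO with Ang II and 1.69 in KO control, against 2.17 in WT with Ang II and 2.54 in WT control, for differences of -0.68 and -0.85. Col15a1, a multiplexin of the basement membrane zone, had 5.86 and 5.91 in KO with Ang II and KO control, against 6.57 and 6.53 in WT with Ang II and WT control, for differences of -0.70 and -0.62. For both genes each KO value lay below each WT value, by more than the signal error. Col18a1, the other multiplexin and the precursor of endostatin, had 7.26 in KO with Ang II and 7.43 in KO control, against 7.05 in WT with Ang II and 6.98 in WT control. Its differences of 0.21 and 0.45 were both above 0, the first about as large as the signal error of 0.20. It was the only one of the 14 probes above 0 in both.

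Type VI collagen forms beaded microfilaments around cells. The A_64_P073460 probe of Col6a2 had 6.06 in KO with Ang II and 6.28 in KO control, against 6.46 in WT with Ang II and 6.41 in WT control. The A_42_P630260 probe had 3.06 and 3.41 in KO with Ang II and KO control, against 3.15 and 3.27 in WT with Ang II and WT control. Their log2 differences, -0.40 and -0.13 for the first and -0.09 and 0.14 for the second, had opposite signs without Ang II, and only the -0.40 exceeded the error. Col6a5 was above background in WT control alone, with a signal of 17.8 there, against 4.05 in KO with Ang II, 6.92 in KO control and 7.95 in WT with Ang II. Without Ang II it was at least 1.72-fold lower in KO, a bound set by the lowest signal called above background on the KO array.

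The other probes above background on 1 array were those of cartilage-type fibrils. Col2a1 had signals of 1.88 in KO with Ang II, 9.64 in KO control, 1.85 in WT with Ang II and 4.79 in WT control, and only the KO control signal was above background. Without Ang II it was at least 1.5-fold higher in KO, with an error that exceeded the difference. Col11a2 (A_44_P527024) had 2.30, 1.82, 6.13 and 12.3 on the same arrays and was above background in WT control alone. Without Ang II it was at least 1.19-fold lower in KO, again with an error larger than the difference. The cartilage marker list gave 2 of 6 measured genes, Comp and Sox9, with a summed linear level of 2.51 in KO with Ang II and 2.90 in KO control, against 1.41 in WT with Ang II and 1.63 in WT control, and Acan, Matn1, Cnmd and Hapln1 not above background on all arrays.

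**Figure D3:**
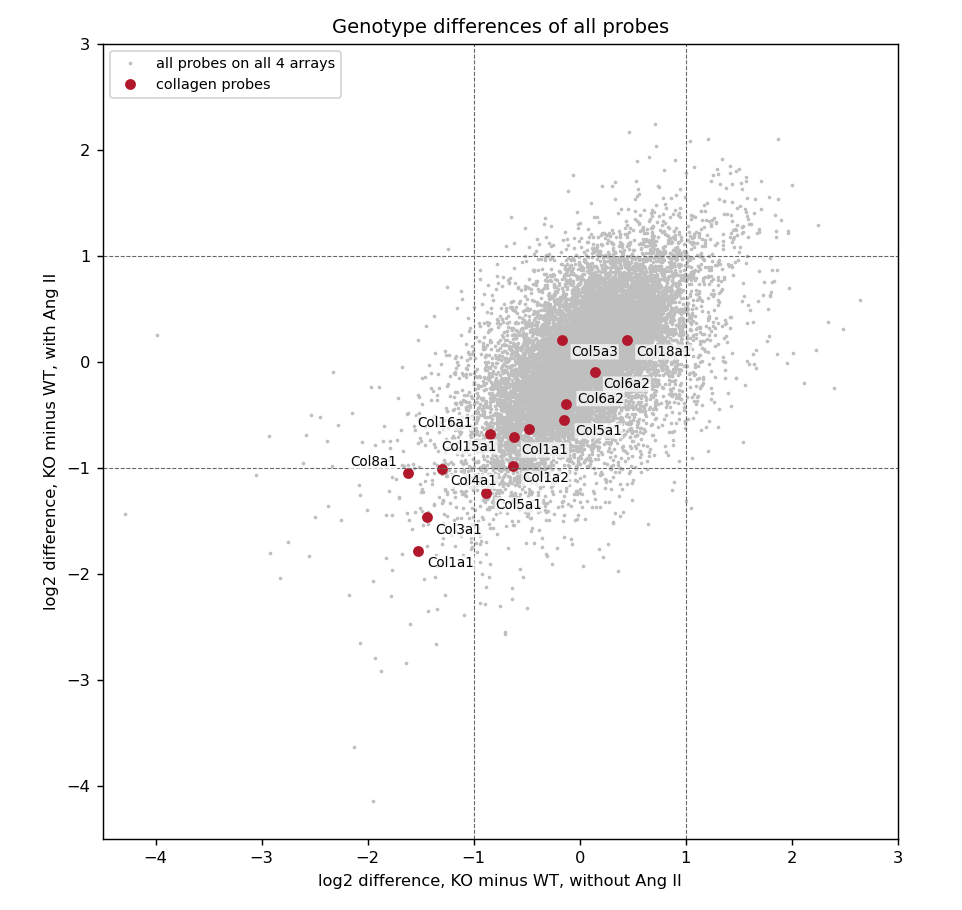
KO minus WT log2 difference without Ang II (x axis) and with Ang II (y axis) for all 17390 probes above background on all arrays (grey) and the 14 collagen probes (red), with dashed lines at 2-fold. The red points lie mainly in the lower left, and the 4 probes past both lines are those of Col1a1, Col3a1, Col4a1 and Col8a1.

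An additive fit (limma, genotype plus treatment over all 4 arrays, 19725 probes) took the arrays of both treatments as repeats of a genotype and left 1 residual degree of freedom. At a Benjamini-Hochberg adjusted p of 0.05 it called 0.0% of probes for genotype. The smallest adjusted p in limma was 0.136, a tied value that Col1a1 (A_64_P040278) and Col3a1 shared with other probes. It therefore does not rank the collagen probes first among all probes. Fitted log2 differences were -1.65 ± 0.17 for Col1a1 (A_64_P040278) and -1.46 ± 0.16 for Col3a1 (SE). At an unadjusted p under 0.05, 9 of 14 collagen probes and 4641 of all probes (23.5%) passed, all 9 lower in KO. With an intensity trend in the variance the same fit called 9 of the collagen probes and 11.8% of all probes at the adjusted threshold, and with normexp correction 8 and 8.8%, so the call depends on the variance model and on the background correction. A residual of this fit holds the interaction of genotype with Ang II and no replicate of an array.

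The question of the second comparison is how Ang II for 24 h moved collagen transcripts within each genotype. In KO, 13 of 14 collagen probes were below 0 after Ang II, where 49.3% of all probes were, with a median of -0.19 log2 units against 0.00 over all probes, and 0 of 15 were 2-fold lower or higher (1.11% and 0.303% of all probes were). That median was about the size of a single probe's signal error of 0.20. Among the gene lists below, 0 of 7 collagen degradation genes, 1 of 5 collagen receptors and 1 of 6 fibroblast markers were above 0 in KO. Their medians were -0.25, -0.09 and -0.33, and 50.7% of all probes were above 0. Going the other way, 12 of 18 folding genes, 7 of 9 profibrotic genes and all 5 macrophage markers were above 0 in KO, with medians of 0.09, 0.06 and 0.27. These directions were not all particular to KO. In WT, 13 of 18 folding genes, 4 of 9 profibrotic genes and 3 of 5 macrophage markers were above 0, with medians of 0.15, -0.08 and 0.18. The degradation, receptor and fibroblast lists had 2 genes each above 0 in WT. In WT, 7 of 14 collagen probes were below 0, where 47.3% of all probes were, with a median of -0.03 against 0.02, and 2 of 16 (Col5a3 and Col6a5) were at least 2-fold lower, against 1.19% of all probes, and 0 higher, against 1.15%. The Col6a5 probe was not above background in WT with Ang II, and its difference there is as read. Where the WT sign lay depended on the scaling: 12 of 14 WT probes were below 0 after quantile normalization. Below 0 in both genotypes were 6 of 14 probes, against 22.4% of all probes, and above 0 in both were 0, against 25.8%.

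**Figure D4:**
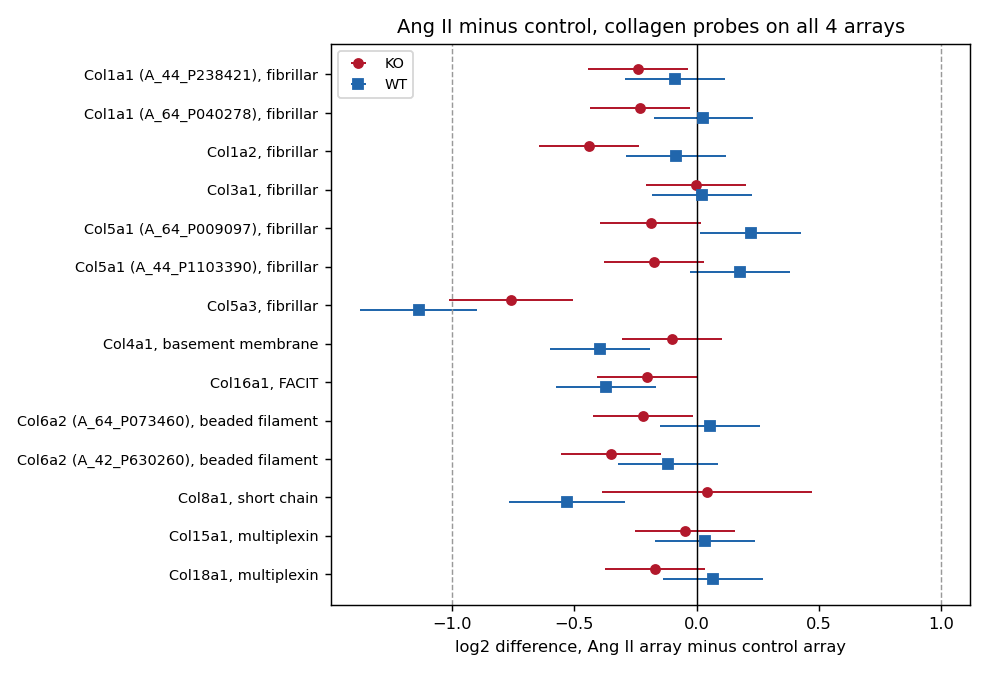
Ang II minus control log2 difference in KO and in WT of the 14 collagen probes above background on all 4 arrays, with error bars from the scanner software's signal error and lines at 2-fold. Of these, Col5a3 is the lowest in both genotypes, and apart from it and Col8a1 in WT (-0.53) the points lie between -0.44 and 0.22.

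Of the probes measured on all 4 arrays, Col5a3 had the lowest Ang II difference in both genotypes. Its scaled log2 levels were -1.24 in KO with Ang II and -0.48 in KO control, and -1.45 in WT with Ang II and -0.31 in WT control. The differences were -0.76 ± 0.25 in KO and -1.13 ± 0.24 in WT, where it was 2.20-fold lower. With normexp correction both shrank, to -0.32 and -0.47, but its offset of 50 exceeds all 4 Col5a3 signals and shrinks such differences by itself. Its 2 spots differed on some arrays, with an SD of 0.423 log2 units on the WT Ang II array. In the additive fit Col5a3 was the only collagen probe of 14 with an unadjusted p under 0.05 for Ang II (log2 difference -0.95, limma adjusted p = 1), and limma called 0.0% of probes, with 817 at an unadjusted p under 0.05 (4.14%).

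For types I and III the Ang II differences were small. Col3a1 differed by 0.00 in KO and by 0.02 in WT after Ang II, both inside the error of 0.20. For Col1a1 the differences in KO were -0.24 (A_44_P238421) and -0.23 (A_64_P040278), and those in WT -0.09 and 0.03. Here, unlike in the genotype comparison, the probes of Col1a1 differed by at most 0.12 log2 units. Col1a2 differed by -0.44 ± 0.20 in KO and by -0.09 in WT. Col4a1 differed by -0.10 in KO and by -0.39 in WT, and Col8a1 by 0.04 in KO and by -0.53 ± 0.24 in WT. Col16a1 differed by -0.20 in KO and -0.37 in WT, Col15a1 differed by -0.05 in KO and 0.03 in WT, and Col18a1 by -0.17 in KO and 0.07 in WT. Col6a5 was 2.37-fold lower after Ang II in WT and Col11a2 at least 1.65-fold, each with only the WT control array above background. The Col6a5 signal in WT with Ang II, 7.95, lay just above the lowest signal called above background there, 7.92. Its difference is therefore as read and no bound. With normexp correction the Col6a5 and Col11a2 differences shrank to -0.19 and -0.18 log2 units, as its offset of 50 does to any probe this dim. Col2a1 was at least 1.29-fold lower after Ang II in KO, with an error larger than the difference.

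Between the genotypes the Ang II differences of the 14 probes, KO minus WT, had a median of -0.19, against -0.02 for all probes, and 0 were past 2-fold in either direction (1.77% higher and 2.71% lower over all probes). They ran from -0.41 ± 0.29 for Col5a1 (A_64_P009097) to 0.57 ± 0.49 for Col8a1. With 1 array per group these were not tested.

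Genes that make, trim and turn over collagen were taken from lists chosen with earlier results of these data known. Over the 17390 probes measured on all arrays, the median KO minus WT difference was 0.03 with Ang II and 0.05 without, and 564 and 395 were at least 2-fold lower. Over all probes compared, with dim ones included, the shares at least 2-fold lower were 3.63% and 2.81%. In the list of chain folding and modification, 22 of 24 genes had a probe and 18 were measured on all arrays. Their median KO minus WT difference was -0.22 with Ang II and -0.18 without, and 1 gene was at least 2-fold lower in each. That gene was P4hb, the beta subunit of prolyl 4-hydroxylase, at -1.32 and -1.29. Next came Serpinh1, the collagen chaperone HSP47, at -0.77 and -0.95, Plod2, a lysyl hydroxylase, at -0.67 and -0.97, and Fkbp10, a procollagen chaperone, at -0.48 and -0.99. In the list of processing and cross-linking, 13 of 18 genes had a probe and 11 were measured. Their medians were -0.54 and -0.34, and 3 genes were at least 2-fold lower with Ang II and 2 without. Sparc, a collagen-binding matricellular protein, was at -1.74 and -1.44, Loxl2, a cross-linking oxidase, at -1.36 and -2.38, and Lum, a fibril-binding proteoglycan, at -1.27 and -0.76. Pcolce, which enhances C-propeptide removal, was at -0.61 and -0.85.

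For collagen receptors, 7 of 10 genes had a probe and 5 were measured, with medians of 0.14 and 0.31. Ddr1, a collagen receptor kinase, had a difference of 1.14 with Ang II, past 2-fold, and of 0.61 without. Itga1, the alpha chain of a collagen-binding integrin, was at 0.64 in both, Itgb1, its beta chain, at 0.14 and 0.31, and Ddr2, a receptor kinase for fibrillar collagen, at -0.31 and -0.48. For collagen degradation, 7 of 11 genes were measured, with medians of -0.04 and 0.35, and the collagenase Mmp13 was at -0.02 with Ang II and 1.09 without. Ctsk, a lysosomal protease that cuts collagen, was at -0.58 and -0.55, the gelatinase Mmp2 at 0.20 and 0.35, and the inhibitor Timp1 at 0.03 and 0.61. For profibrotic signals, 9 of 10 genes had a probe and all 9 were measured, with medians of -0.07 and -0.04. Ccn2, a matricellular growth factor that acts downstream of TGF-beta, was at -1.01 and -0.89, Tgfbr2, a TGF-beta receptor, at -0.66 and -0.75, Tgfb1 at 0.20 and 1.16, and Smad7, an inhibitor of TGF-beta signalling, at 0.68 and 0.34. Of the 9 genes, 4 were above 0 with Ang II and 3 without.

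**Figure D5:**
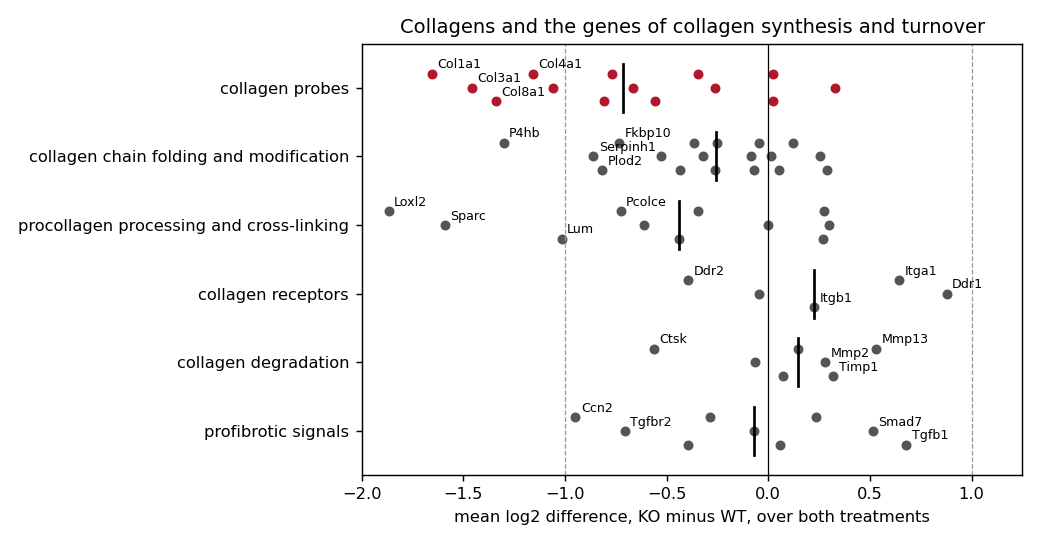
KO minus WT log2 difference, as the mean of the comparisons with and without Ang II, of the 14 collagen probes (red) and of the measured genes of each pathway list (grey), with a bar at the median of each row and dashed lines at 2-fold. The collagen points run from -1.65 (Col1a1) to 0.33 (Col18a1), and P4hb, Loxl2, Sparc and Lum lie past 2-fold lower.

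Markers of the cell types that could carry collagen RNA moved as follows between the genotypes. The 6 of 8 fibroblast markers measured on all arrays (Cd34 and Thy1 were not) had a summed linear level of 151 in KO with Ang II and 183 in KO control, against 176 in WT with Ang II and 180 in WT control, and a median log2 difference of -0.35 with Ang II and -0.14 without. All 10 smooth muscle markers summed to 245 and 229 in KO with Ang II and KO control, against 164 and 176 in WT with Ang II and WT control, with 9 of 10 above 0 in each comparison, where 52.9% of all probes were with Ang II and 54.9% without. The 7 endothelial markers summed to 22.8 and 21.2 in KO with Ang II and KO control, against 25 and 27 in WT with Ang II and WT control. Of these, 3 were above 0 with Ang II and 1 without, with median log2 differences of -0.09 and -0.25. The 5 macrophage markers (of 8, without Csf1r, Cd163 and Mrc1) summed to 19.7 and 15.8 in KO with Ang II and KO control, against 24.9 and 28.6 in WT with Ang II and WT control, all 5 below 0 in both comparisons, where 31.9% of all probes were. The 2 lymphatic endothelial markers measured, Prox1 and Pdpn (of 5, without Flt4, Lyve1 and Ccl21), summed to 144 and 159 in KO with Ang II and KO control, against 266 and 200 in WT with Ang II and WT control. Prox1, the brighter, differed by -0.98 with Ang II and -0.48 without, and Pdpn by -0.31 and 0.43. The 2 cycling cell markers measured, Mki67 and Rrm2 (of 5, without Cdk1, Ccna2 and Ccnb1), summed to 0.764 and 0.749 in KO with Ang II and KO control, against 2.62 and 3.53 in WT with Ang II and WT control. The summed level of the smooth muscle markers was thus higher, and that of the endothelial, macrophage, lymphatic and cycling cell markers lower, on both KO arrays. Single smooth muscle, endothelial and lymphatic markers went the other way. The lymphatic and cycling cell sums rest on 2 genes each, the lymphatic one mostly on Prox1. The fibroblast sum was lower in KO with Ang II (151 against 176) and about equal without (183 against 180). The part of these cell types in the collagen differences was not tested.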

How the data were processed

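Total RNA was extracted with Trizol and labelled with Cy3, per the labels' protocols. The authors deposited 1 scanner file for each of the 4 arrays with a background-corrected processed signal intensity per spot, made with Agilent Feature Extraction, version 10.7.1.1 per the file headers and 12.1.1.1 per the submitters' processing notes. The array design build is rn4 per the file headers. The authors' deposited value table holds log2 intensity values. They track the log2 processed signal at a fixed offset, to within 0.01, for 98.3% to 98.4% of the probes on each array, and served as an alternative.

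Control spots and outlier spots were left out, spots of a probe averaged, and each array's 75th percentile of log2 signal subtracted. Probes were named through RefSeq accessions (21107 of 45594 probes had a symbol). Where 1 array of a pair was not well above background, the difference was set against the lowest signal called above background there and given as a bound. Where the dim signal itself lay above that lowest signal, as for Col6a5 after Ang II in WT, the difference was kept as read. A 2-fold size rule stood in for a test, since there is 1 array per group. limma 3.58.1 in R 4.3.3 fitted genotype plus treatment over probes above background on at least 2 arrays, and was tested on simulated data. Every collagen probe is accounted for, those above background on any array with all 4 values, and the pathway genes named are the 4 per list with the largest mean KO minus WT difference. The collagen members and all lists were chosen with earlier results of these data known. All 4 arrays lay on 1 slide at separate positions, so position and group cannot be told apart. Alternatives were 2 other scalings, quantile normalization, normexp (offset 50, on the median signal, since the files hold no mean signal), the authors' table, outlier spots kept, dim values as read, a mean over a gene's probes and an intensity trend. The use of the median signal in normexp and the share among bright probes were chosen after seeing the data. The number of arrays limits the precision.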

Additional observations from a re-analysis of the deposited data

Results flagged for a closer look

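Col5a1, the type V collagen chain that starts fibrils, had Ang II differences of opposite sign in the genotypes on both of its probes. Probe A_64_P009097 gave -0.188 log2 units in KO and 0.220 in WT, and probe A_44_P1103390 gave -0.174 in KO and 0.176 in WT. With 1 array per group the difference between the genotypes was not tested, and each value is close to the signal error of 0.20.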

How the results depend on the processing

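With 1 array per group, nothing here separates a group from its array, and dim probes have only bounds or a difference as read. The signs of the KO minus WT differences held for all 14 probes under each alternative with a value per probe, except 1 probe (Col6a2, A_42_P630260) without Ang II under normexp, at -0.25. Those of the Ang II differences held for 11 to 14 probes in KO and 9 to 14 in WT. Taking dim values as read, over all 31 collagen probes, gave 1 lower for Ang II in KO and 4 in WT, 1 higher for KO against WT with and 1 without Ang II, medians of -0.094 with and 0.14 without, and 1 higher and 1 lower for the difference of responses. A mean over a gene's probes, with the same background bounds, gave 4 lower in each KO against WT comparison. For Ang II in WT, normexp gave 0 lower and probes on all arrays alone gave 1. The additive fit called 8 collagen probes for genotype with normexp and 9 with an intensity trend, against 0. The cause was not tested. Of 76 single-probe values, normexp moved 12, and dim values as read 3. No paired analysis was possible because every array carries replicate number 1.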
